A study of Mus musculus with 9 samples.

Results

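The comparison described here is that of CD49b knockout with wild-type pancreatic cancer cells in culture, with no host cells present. Its members are all 49671 genes of the culture count table in the 4 culture libraries, out of 9 libraries in the series. Of these genes 24132 had at least 1 count and 13573 passed the filter on low counts and were tested. The libraries came from the mouse line KPCWT (genotype WT, 2 libraries) and the line KPC49bKO (CD49b knockout, here KO, 2 libraries). Both were grown in the same serum-containing medium and harvested before they were confluent, and the labels call the replicates biological without saying how they were made, so the p-values measure the spread between these libraries only. Each genotype is 1 line, and what is due to CD49b and what to other differences between the lines cannot be told apart. The remaining 5 libraries came from tumours of the same lines (3 WT, 2 KO) grown under the skin of syngeneic C57BL/6 mice and dissociated with enzymes. They share no library with the cultures and are set beside some culture values. In the deposited counts 1 of the 2 KO tumour libraries bears the number 3. This number matches no label, so that library was tied to its group by name only.

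CD49b is integrin alpha 2, encoded by Itga2. Together with the beta 1 chain it forms a receptor on epithelial cells and platelets that binds collagen. Integrins have no enzymatic activity of their own: when they hold matrix they recruit talin, kindlins and focal adhesion kinase, link to the actin cytoskeleton and act together with growth factor receptors on the ERK, AKT and YAP pathways. In ductal pancreatic cancer, cells of the classical type make gastric mucus proteins and cells of the basal type make mesenchymal and cytoskeletal ones.

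Total counts ran from 17738774 to 21247023 in the 4 culture libraries, and the 2 libraries of each line differed by more than counting noise. Levels are given as CPM (counts relative to library size, scaled by TMM), and differences as log2 fold changes of KO over WT with their SE. Tests were edgeR's quasi-likelihood test, and each adjusted p comes from the Benjamini-Hochberg method run on the whole set of tested genes. The marker lists for T and NK cells, B cells, neutrophils, endothelium, red cells and islet cells each summed to less than 1 CPM in every culture library. In the macrophage list, 5, 5, 3 and 6 of 8 markers had no count, among them C1qa, C1qb and Lyz2 in every library, and its summed level of 155 to 191 CPM was almost all Mrc1. Duct and epithelial markers summed to 9493 to 10851 CPM, carried by keratins, Cdh1 and Tspan8. The macrophage sum was 186 and 191 CPM in WT and 155 and 165 CPM in KO. The duct sum was 9998 and 10851 CPM in WT and 9690 and 9493 CPM in KO. In these sums and in those of the other 3 marker lists the groups did not overlap, as for 61.4% of all genes tested. The acinar list was at 30.4 and 42.2 CPM in WT and 9.71 and 11.2 CPM in KO, nearly all of it Cela1, with Cpa1, Prss1 and Amy2a1 at 0 in every culture library. The fibroblast list was at 2.22 and 0.933 CPM in WT and 0.276 and 0.057 CPM in KO, mostly Col1a1, with Dcn, Lum and Col1a2 at 0 in all 4. The pan-leukocyte list was at 6.33 and 5.98 CPM in WT and 7.78 and 8.95 CPM in KO, within which Ptprc went from 2.11 and 2.58 to 7.04 and 8.32 CPM and Coro1a from 3.30 and 2.85 to 0.046 and 0.057 CPM. The part of these lists in the results was not tested. In a bulk library fewer cells of a state and less RNA per cell cannot be told apart.

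Itga2 itself (ENSMUSG00000015533, chromosome 13, 114833081 to 114932100, minus strand, GRCm38, GENCODE M21) was at 144 and 113 CPM in the WT and 79.9 and 85.2 CPM in the KO cultures. Both KO libraries lay below both WT libraries, and transcript remained in both KO libraries. Groups that do not overlap, as for 61.4% of all genes tested, are no check of the labels. The log2 fold change was -0.64 (SE 0.17, edgeR adjusted p = 0.0135). Without WT culture 1 the adjusted p was 0.173, without KO culture 1 it was 0.113, and when culture and tumour libraries were fitted jointly, which ended the calls of Itga2 and Itgb4, it was 0.0505. Its partner Itgb1 was at 839 and 868 CPM in WT and 601 and 709 CPM in KO, short of the threshold (edgeR adjusted p = 0.139). Among 25 integrin chains and other matrix receptors tested, 3 were higher and 8 lower. Itga7, a laminin-binding chain, had 5.95 and 3.79 CPM in WT and 13.7 and 15.5 CPM in KO and rose by 1.58 (SE 0.25, edgeR adjusted p = 0.000534), while Cd44, a receptor for hyaluronan, went from 192 and 191 to 90.95 and 87.6 CPM and fell by 1.10 (SE 0.15, edgeR adjusted p = 0.000199). Itga1, which encodes the other collagen-binding alpha chain of epithelia, was at 46.3 and 37.6 CPM in WT and 65.2 and 63.5 CPM in KO (edgeR adjusted p = 0.0181), and Itgb4, the laminin receptor chain of hemidesmosomes, at 31.3 and 23.8 CPM in WT and 18.8 and 14.9 CPM in KO (adjusted p = 0.0227). Neither call held when single libraries were left out: the adjusted p reached 0.217 for Itga1 without WT culture 2, 0.076 without KO culture 1 and 0.056 without KO culture 2, and 0.195 for Itgb4 without WT culture 1 and 0.129 without KO culture 2. The count of 8 lower receptors was 3 without WT culture 1, 5 without KO culture 1 and 4 without KO culture 2.

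In all, 3461 of 13573 genes passed an adjusted p of 0.05 with edgeR (25.5% of genes tested), with 1258 gains (9.27%) and 2203 losses (16.2%) in KO cells. The KO libraries did not overlap the WT libraries for 61.4% of genes tested. Gains and losses had different shapes. The median gain among the genes called was 0.72 on the log2 scale, 76.2% of gains were below 1, and 64 of the 1258 (5.09%) reached 2. The median loss was -1.49, and 831 of the 2203 (37.7%) reached 2 or more. Losses were mostly of rare transcripts: of the genes with a mean from 1 to 10 CPM, 172 were higher and 882 lower. Among the 2060 genes with a mean of at least 100 CPM the order was the other way round, with 311 higher (15.1%) and 179 lower (8.69%). The numbers of calls depended on single libraries. Without WT culture 2 the higher calls fell to 570, without KO culture 1 to 709, and 386 of the 1258 gains and 1221 of the 2203 losses were called whichever library was left out.

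**Figure D1:**
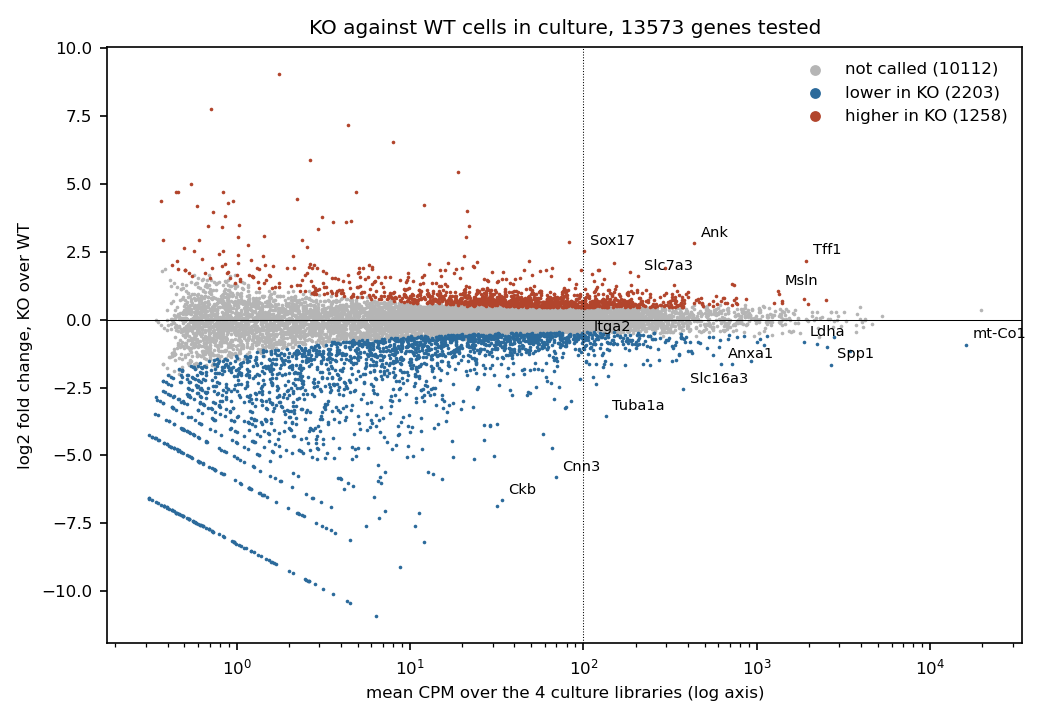
Log2 fold change of KO over WT (vertical) against the mean CPM over the 4 culture libraries (horizontal, log axis) for the 13573 genes tested, 1 point per gene, coloured by its edgeR call, with the dotted line at 100 CPM. Right of that line 311 genes are higher and 179 lower, while the large losses sit among genes of low level, where the slanting rows of points on the left are genes with few or no counts in KO and their fitted values are no measure of size.

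The abundant genes with the largest differences, chosen among those whose groups did not overlap, included transporters, mucus peptides and enzymes. Ank (ENSMUSG00000022265, chromosome 15, 27466677 to 27594909, plus strand), which carries pyrophosphate and citrate out of cells, was at 109 and 109 CPM in WT and 773 and 758 CPM in KO. Tff1 (ENSMUSG00000024032, chromosome 17, 31161395 to 31165277, minus strand), a trefoil peptide of gastric mucus, was at 614 and 782 CPM in WT and 2993 and 3329.9 CPM in KO. These were log2 fold changes of 2.81 (SE 0.17, edgeR adjusted p = 3.73e-07) and 2.18 (SE 0.21, edgeR adjusted p = 1.16e-05). Il33, an epithelial alarmin cytokine, rose from 127 and 125 to 457 and 480.3 CPM. Among the same 12 largest gains were 4 enzymes of small molecules: Aspa, which splits N-acetylaspartate, at 77.03 and 94.8 CPM in WT and 268 and 307 CPM in KO; Ephx2, which opens fatty acid epoxides; Gk, which phosphorylates glycerol; and the sulfotransferase Sult1c2, at 52.6 and 62.96 CPM in WT and 239 and 248 CPM in KO. Ephx2 rose by 1.68 and Gk by 1.42 on the log2 scale (SE 0.16 and 0.16).

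Among the abundant losses, Slc16a3 (ENSMUSG00000025161, chromosome 11, 120948480 to 120960868, plus strand), the exporter of lactate from glycolytic cells, was at 617 and 673 CPM in WT and 107 and 111 CPM in KO. Tuba1a, an alpha tubulin, went from 219 and 279.7 to 19.6 and 23.3 CPM. These were log2 fold changes of -2.56 (SE 0.17, edgeR adjusted p = 5.92e-07) and -3.54 (SE 0.19, edgeR adjusted p = 1.92e-07). Tuba1a has near-identical tubulin copies, and how reads with several positions were counted is not given in the sources used here. Large losses also included the secreted proteins Fn1, Igfbp7, Spp1 and Dmbt1 and 3 genes of sterol balance, Hmgcs1, Insig1 and Stard4. Spp1, or osteopontin, was the most abundant of them at 3684 and 4445 CPM in WT and 1361 and 1219.7 CPM in KO, a log2 fold change of -1.66 (SE 0.21, edgeR adjusted p = 0.000101).

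**Figure D2:**
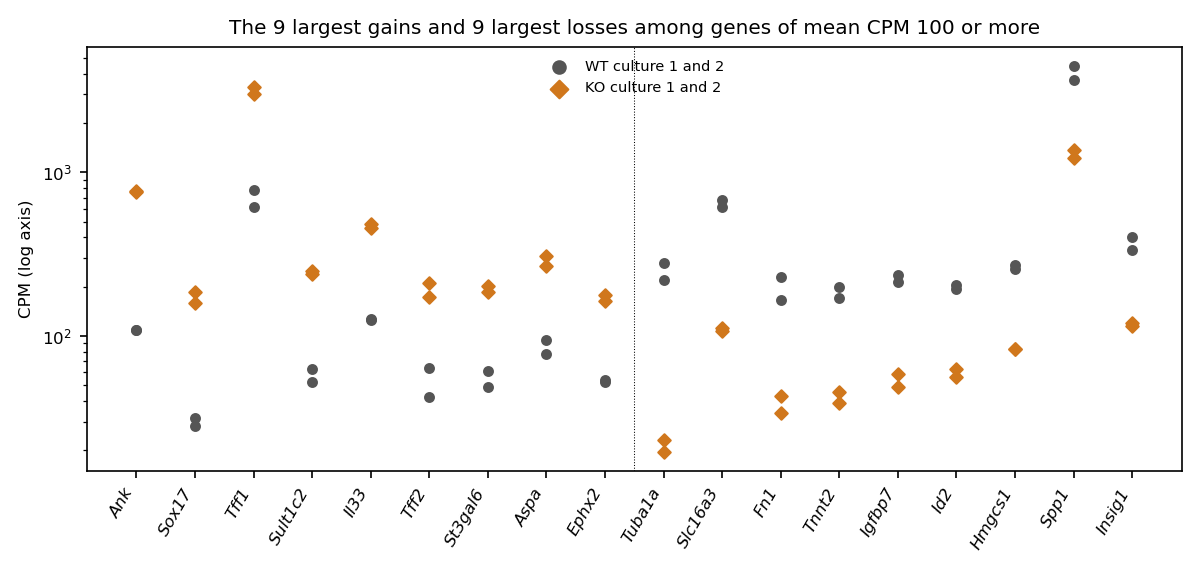
CPM of each culture library (vertical, log axis) for the 9 biggest gains (left) and the 9 biggest losses (right) by log2 fold change among called genes with a mean of at least 100 CPM. Circles are the 2 WT and diamonds the 2 KO libraries, and Tff1 has the highest level among the gains. The genes were chosen by their call and log2 fold change in these same libraries, so the gap between the lines is no result.

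Below these extremes lay moderate differences in genes of high level, again chosen among genes whose groups did not overlap. Nt5e, the surface enzyme CD73 that makes adenosine from AMP, rose from 410.5 and 445 to 953 and 1136 CPM (log2 fold change 1.29, SE 0.18, edgeR adjusted p = 0.000227). Vnn1, a pantetheinase that releases cysteamine, rose from 396 and 438 to 950.3 and 1104 CPM, and Msln, the surface antigen mesothelin of pancreatic cancer, from 855 and 883 to 1849 and 1752 CPM. Far1, which makes fatty alcohols for ether lipids, rose by 1.05 and Atp2b1, a calcium pump of the plasma membrane, by 0.97. In the other direction Anxa1, a calcium-dependent membrane-binding protein, went from 828 and 1063 to 278 and 334 CPM (fell by 1.63, SE 0.19, edgeR adjusted p = 5.84e-05), and Aldh1a3, which makes retinoic acid, from 494 and 466 to 163 and 167 CPM. Lgals1, or galectin-1, went from 513 and 596 to 223 and 272 CPM. Prl2c2, a proliferin, was at 955 and 1219 CPM in WT and 321 and 379.9 CPM in KO, a value that is uncertain because its near-identical family members could share reads.

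The differences were not spread evenly over the genome. Over the 8921 genes with a mean of at least 10 CPM on the autosomes and the X chromosome the median log2 fold change was 0.07, while that of the 744 such genes on chromosome 11 was -0.15, of the 371 on chromosome 15 -0.19 and of the 282 on chromosome 16 -0.13. On chromosome 6 the median of 425 genes was 0.27, and on chromosome 13 that of 323 genes was 0.22. The medians of single libraries against the WT mean were -0.13 and -0.19 for chromosome 11 in KO cultures 1 and 2, -0.16 and -0.22 for chromosome 15, -0.16 and -0.11 for chromosome 16, and 0.26 and 0.30 for chromosome 6. No WT culture lay further than 0.04 from 0 on any chromosome, but both KO libraries lay beyond both WT libraries on 19 of the 20 chromosomes, so this does not set these 4 apart. Of the 8921 genes as a whole, 11.8% were higher and 10.9% lower. By chromosome, 25.6% were higher and 7.1% lower on chromosome 6, against 5.0% higher and 20.8% lower on chromosome 11, 4.3% and 21.0% on chromosome 15, and 4.6% and 16% on chromosome 16. The tumours, which share no library with the cultures, had medians of -0.33, -0.37 and -0.31 on chromosomes 11, 15 and 16 and of 0.21 on chromosome 6. Chromosome 6 did not stand out among the higher ones there. Chromosome 19 had a tumour median of 0.25 and chromosome 4 of 0.20, against 0.12 and 0.11 in culture. In tumours 23.6% of genes were higher and 3.5% lower on chromosome 19, against 20.2% and 5.7% on chromosome 6. Chromosome 12 had a median of -0.11 in culture and of 0.05 in tumours. In culture 5.4% of its genes were higher and 18.2% lower, a larger share of losses than on chromosome 16. Cut into 4 equal parts by gene order, chromosome 6 had medians from 0.23 to 0.34, chromosome 16 from -0.17 to -0.08, chromosome 15 from -0.24 to -0.04, and chromosome 11 had medians of -0.24, 0.04, -0.19 and -0.28, so that its second part (57645442 to 78541737) differed from the rest. These 4 chromosomes were picked after their medians were seen. Chromosomes 11, 15 and 16, with 14.9% of all genes tested (2023), held 497 of the 2203 lower genes (22.6%). Chromosome 6, with 4.9% (665), held 121 of the 1258 higher genes (9.62%) and also 88 lower ones (3.99%). Single genes ranged far beyond these medians, such as Slc16a3 on chromosome 11 at -2.56 and Ank on chromosome 15 at 2.81. The number of copies of each chromosome was not measured. The part of chromosome position in the single differences below was not tested.

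**Figure D3:**
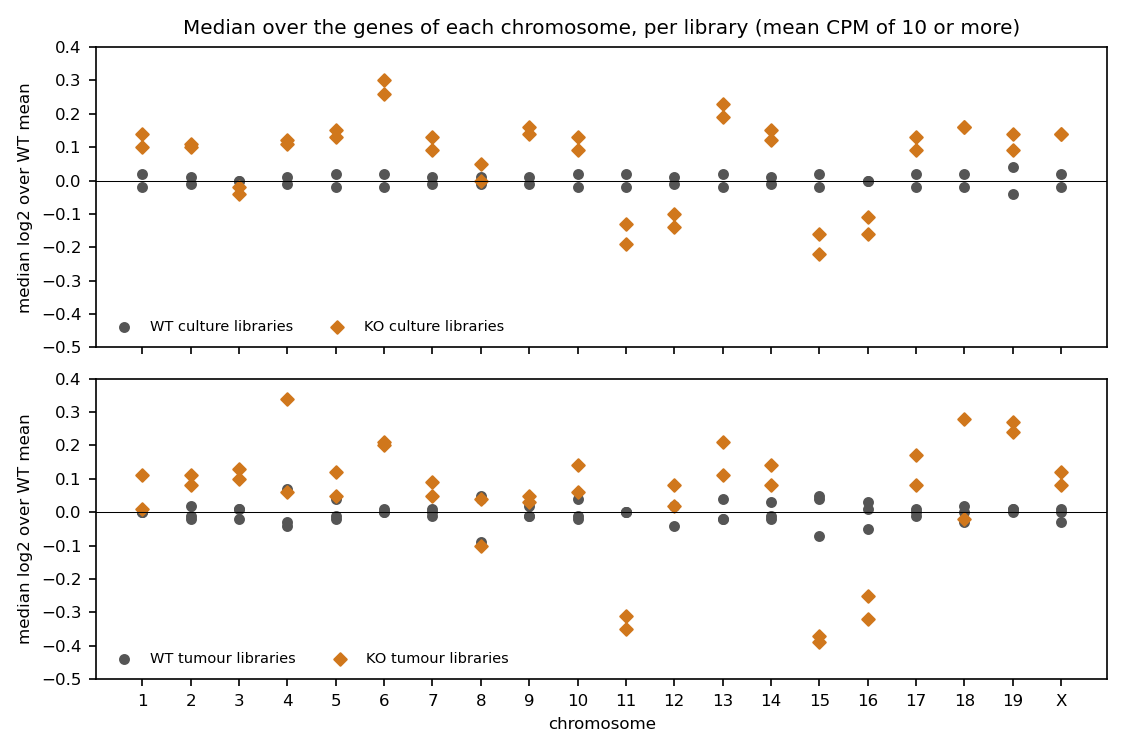
Median log2 ratio of each library to the mean of the WT libraries (vertical) over the genes of each chromosome (horizontal) with a mean of at least 10 CPM, in culture (top) and tumours (bottom), with WT as circles and KO as diamonds. In both settings the KO libraries lie below every WT library on chromosomes 11, 15 and 16 and above every WT library on chromosome 6. They also lie above every WT library in both settings on other chromosomes, such as 2 and 19.

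Gene lists were then described by the members called, beside the 9.27% of all genes tested that were higher and the 16.2% that were lower. These shares changed with level. From 1 to 10 CPM 5.14% of genes were higher and 26.4% lower, and from 100 to 1000 CPM 15.6% and 8.71%. The part of level in the list counts was not tested. Beside the shares of all genes, the lists with the most gains held genes of gastric mucus, ribosome biogenesis, tRNA charging, amino acid supply and the circadian clock. Those with the most losses held genes of nucleotide and creatine metabolism, matricellular proteins, the Wnt pathway, cyclic AMP signalling and the mitochondrial genome.

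**Figure D4:**
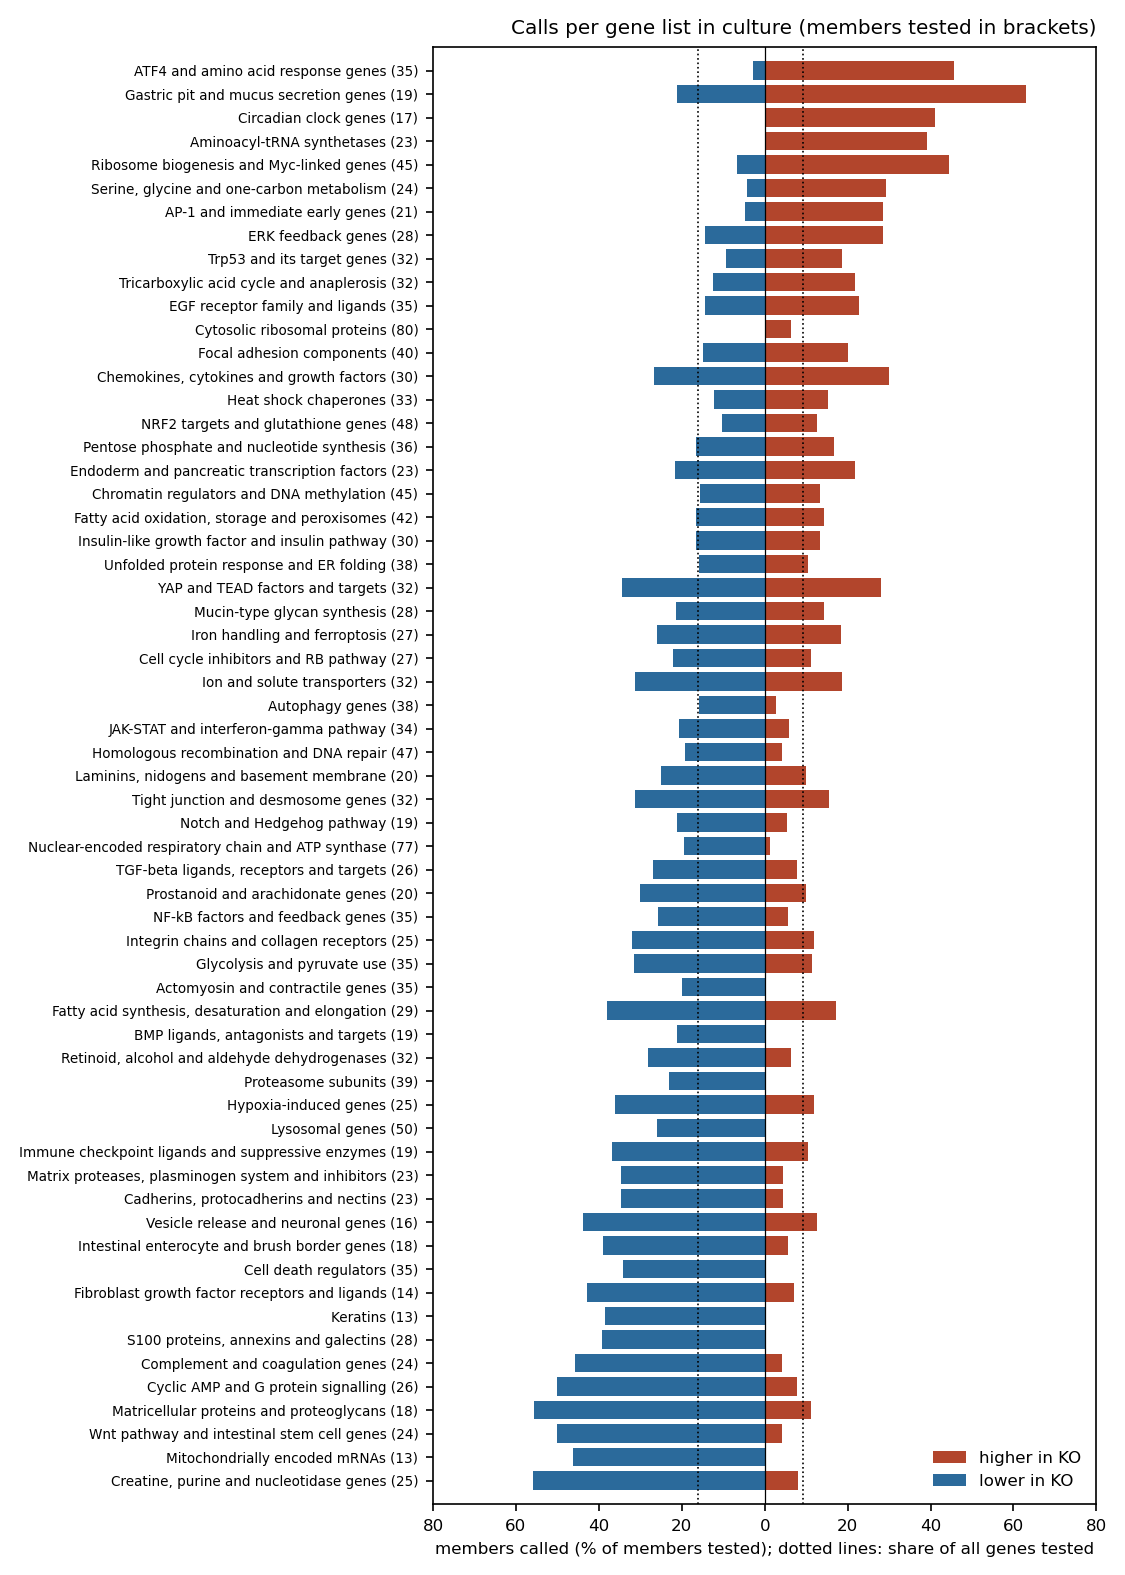
Share of the tested members of each of 61 gene lists that was called higher (right) or lower (left) in KO cultures, in percent, with the number tested in brackets and dotted lines at the shares of all genes tested, 9.27% and 16.2%. Gastric mucus genes reach the highest share of gains and creatine, purine and nucleotidase genes the highest share of losses.

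Genes of protein synthesis were moderately higher. Of 45 genes of ribosome biogenesis and the Myc network, which make ribosomal RNA and assemble it into ribosomal subunits, 20 were higher and 3 lower, with a median of 0.46. Wdr43, needed for the processing of the small subunit, was at 254 and 231 CPM in WT and 408 and 457 CPM in KO. Nop14, which acts in the same step, was at 65.9 and 56.2 CPM in WT and 128 and 102 CPM in KO. They rose by 0.84 (SE 0.16, edgeR adjusted p = 0.00246) and 0.91 (SE 0.17, edgeR adjusted p = 0.0019), with both KO libraries above both WT libraries. The 3 lower genes were Mxd3, a partner of Max that opposes Myc, which went from 4.98 and 6.703 to 0.553 and 0.798 CPM, and Mycn and Mycl, named after their values were seen, at 2.92 and 2.69 CPM in WT and 1.29 and 0.684 CPM in KO and at 3.74 and 5.71 CPM in WT and 2.12 and 2.05 CPM in KO. Mycn was no longer called in the absence of WT culture 1 (edgeR adjusted p = 0.0605) or KO culture 2 (adjusted p = 0.0589), nor Mycl without WT culture 2 (adjusted p = 0.232), nor either gene when culture and tumour libraries were fitted jointly. The number of higher genes rested on the libraries used: it was 3 without WT culture 2, 8 without KO culture 1, 17 without WT culture 1 and 14 without KO culture 2. Without chromosomes 6, 11, 15 and 16 it was 16 of 32. Of 80 cytosolic ribosomal proteins, 5 were higher and none lower in edgeR (6.2% called), a share below that of all genes, and none of the 5 was called without WT culture 1, without KO culture 1 or without KO culture 2. Many of these genes have processed pseudogenes, so their counts are uncertain.

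All 23 aminoacyl-tRNA synthetases and their cofactors, the enzymes that load amino acids on tRNA, had a log2 fold change above 0, and 9 passed. Farsb, the beta chain for phenylalanine, was at 104 and 90.5 CPM in WT and 196 and 160.00 CPM in KO (log2 fold change 0.87, SE 0.17, edgeR adjusted p = 0.00212) and was called whichever library was left out. The 9 calls became 3 without WT culture 2, 3 without KO culture 1 and 4 without KO culture 2. Of 35 genes of the response to amino acid shortage, which the transcription factor ATF4 controls, 16 were higher and 1 lower with a median of 0.44. The higher count was 13 without WT culture 1, 8 without WT culture 2, 9 without KO culture 1 and 9 without KO culture 2. Slc7a3, a carrier of arginine and lysine, was at 105 and 100.05 CPM in WT and 297 and 321 CPM in KO and rose by 1.59 (SE 0.16, edgeR adjusted p = 1.36e-05). Slc7a11, which imports cystine in exchange for glutamate, was at 280.03 and 249.8 CPM in WT and 509.6 and 556 CPM in KO and rose by 1.01 (SE 0.17, edgeR adjusted p = 0.00074). Nupr1, a small stress-induced chromatin protein, rose from 88.3 and 88.7 to 193 and 188 CPM, Asns, which makes asparagine, from 359.9 and 345 to 618 and 595 CPM, and Gpt2, which makes alanine from pyruvate, from 104 and 96.04 to 181 and 166 CPM. For each of these 5 genes both KO libraries lay above both WT libraries. The mRNA of Atf4 itself, whose protein level is set mainly by translation, was at 803 and 875 CPM in WT and 913 and 981 CPM in KO, short of the threshold (edgeR adjusted p = 0.512). The 1 lower member was Vldlr, a lipoprotein receptor named here after its value was seen, at 127 and 104 CPM in WT and 65.9 and 76.4 CPM in KO, and it was no longer called without WT culture 1 (edgeR adjusted p = 0.0936) or KO culture 1 (adjusted p = 0.113) and when culture and tumour libraries were fitted jointly.

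The promoters of 4 of these genes are shown because the response element of ATF4 can be read in 3 of them. Each is the 200 bases before the gene start, read on the gene's own strand (RefSeq, GRCm38.p6): Asns at chr6:7693210-7693409, Slc7a11 at chr3:50443614-50443813 and Nupr1 at chr7:126625471-126625670, all on the minus strand, and Gpt2 at chr8:85492376-85492575 on the plus strand. Capitals mark a match to TGATGNAA on either strand.
Asns: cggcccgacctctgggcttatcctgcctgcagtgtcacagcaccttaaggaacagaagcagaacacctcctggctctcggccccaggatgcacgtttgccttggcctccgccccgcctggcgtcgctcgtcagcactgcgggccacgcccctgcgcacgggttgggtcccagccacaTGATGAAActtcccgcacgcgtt
Slc7a11: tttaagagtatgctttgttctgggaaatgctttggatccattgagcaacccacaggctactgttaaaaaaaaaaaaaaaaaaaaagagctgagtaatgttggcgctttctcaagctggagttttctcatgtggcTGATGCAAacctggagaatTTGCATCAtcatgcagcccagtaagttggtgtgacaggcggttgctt
Nupr1: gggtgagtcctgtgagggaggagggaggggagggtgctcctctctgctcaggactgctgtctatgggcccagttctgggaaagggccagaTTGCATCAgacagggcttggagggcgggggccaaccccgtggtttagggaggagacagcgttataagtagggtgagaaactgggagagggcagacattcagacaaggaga
Gpt2: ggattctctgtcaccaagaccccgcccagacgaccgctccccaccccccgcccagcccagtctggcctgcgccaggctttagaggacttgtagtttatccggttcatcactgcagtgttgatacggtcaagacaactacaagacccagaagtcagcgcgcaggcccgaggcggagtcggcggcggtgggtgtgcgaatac
In Asns the match began 23 bases before the start, in Nupr1 110, and Slc7a11 had 2 matches, at 66 and 47 bases before the start, on opposite strands. Gpt2 had no match, which says only that these letters are not in its window. Over windows of 300 bases (250 before to 50 after the start), the motif stood in 4.51% of 27025 genes with a window and in 2.73% of the 9828 of them that were tested in culture. It stood in 11 of 30 tested members of the amino acid response list with a window (36.7%), in 7 of the 13 higher ones (53.8%), and also in the lower member Vldlr. Of 15 synthetases with a window, 5 held it. Members of this list are known for such elements, so the share describes the list and not the cells. The second motif searched was CACGTG, the E-box that Myc and the clock factors bind, which reads the same on both strands and whose last 2 letters can be the first 2 of a TGATGNAA match. It stood in 11.8% of tested genes, in 10 of 38 ribosome biogenesis and Myc network genes (26.3%) and in 4 of the 18 higher ones (22.2%). Of the tested clock genes with a window, 5 of 14 held it (35.7%), and 2 of the 7 higher ones (28.6%). The windows printed were picked after the matches were seen, and a match does not show binding.

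The list of serine, glycine and one-carbon metabolism, which shares members with the amino acid response list, had 7 of 24 members higher and 1 lower. Gldc, which cleaves glycine in mitochondria, was at 112 and 118 CPM in WT and 219.5 and 205 CPM in KO (log2 fold change 0.89, SE 0.15, edgeR adjusted p = 0.00105). Aldh1l1, which burns off one-carbon units from folate in the cytosol, was the lower member at 21.3 and 19.9 CPM in WT and 3.45 and 2.17 CPM in KO, a log2 fold change of -2.86 (SE 0.25, edgeR adjusted p = 5.24e-06). The 7 higher genes became 2 without WT culture 2, 3 without KO culture 1 and 3 without KO culture 2.

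The mitochondrial genome gave a smaller share of counts in KO cells. All counts on it made up 4.715% and 3.393% of the WT libraries and 2.164% and 2.047% of the KO libraries, so the groups did not overlap. Of its 13 mRNAs, which encode subunits of the respiratory chain and the ATP synthase, 6 were lower, none was higher in edgeR, and the median was -0.64. mt-Nd1, a subunit of complex I, was at 3952 and 2899 CPM in WT and 1705 and 1667 CPM in KO (fell by 1.02, SE 0.22, edgeR adjusted p = 0.00396), and mt-Nd2 was at 1614 and 1274 CPM in WT and 774 and 727 CPM in KO. The 6 became 3 without WT culture 1, which had the highest mitochondrial share, and 3 without KO culture 1. The small ribosomal RNA mt-Rnr1 went from 1478 and 1263 to 481 and 464 CPM, in libraries made from polyadenylated RNA. Of the 77 nuclear genes for the same complexes, 15 were lower and 1 higher (20.8% called, below the 25.5% of all genes), with a median of -0.16. The lower count was 0 without WT culture 2 and 1 without KO culture 1. Cox7a2, a small subunit of cytochrome oxidase, was at 59 and 81.3 CPM in WT and 33.8 and 43.6 CPM in KO, and Cox6c, another, at 118 and 138 CPM in WT and 69.3 and 82.97 CPM in KO (edgeR adjusted p = 0.00669 and 0.00529). They were no longer called at adjusted p of 0.081 and 0.0525 without WT culture 2 and of 0.055 and 0.0912 without KO culture 1. The 1 higher gene, Ndufa13 of complex I, named after its value was seen, was at 91.8 and 126 CPM in WT and 155 and 180.01 CPM in KO, and it was no longer called without WT culture 1 (adjusted p = 0.248) or KO culture 2 (adjusted p = 0.155) and when culture and tumour libraries were fitted jointly.

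The proteasome and lysosomal genes that were called were all lower. Of 39 proteasome subunits, 9 were lower and none higher in edgeR, with a median of -0.29. That is 23.1% called, below the 25.5% of all genes. The 2 largest losses were the immunoproteasome subunits Psmb8 and Psmb9, which trim peptides for antigen presentation. Psmb8 was at 6.39 and 7.31 CPM in WT and 0.414 and 0.228 CPM in KO, and Psmb9 at 3.84 and 6.32 CPM in WT and 0.276 and 0.342 CPM in KO, log2 fold changes of -4.35 (SE 0.38) and -4.02 (SE 0.44). Of the constitutive subunits, Psmd13 went from 171 and 216 to 91 and 117 CPM (fell by 0.89, SE 0.18, edgeR adjusted p = 0.00312). The 9 became 3 without WT culture 2 and 3 without KO culture 1. Of 50 lysosomal genes, 13 were lower and none higher in edgeR. They included Cd63, a tetraspanin of late endosomes, at 439 and 576 CPM in WT and 169 and 239 CPM in KO (fell by 1.32, SE 0.21, edgeR adjusted p = 0.000495), and Ctsh, a cysteine protease, at 151 and 219 CPM in WT and 75.1 and 100.1 CPM in KO. The 13 became 8 without WT culture 1, 6 without WT culture 2 and 8 without KO culture 2. At 26.0% called, this list was near the background of 25.5%, but all its calls were losses.

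**Figure D5:**
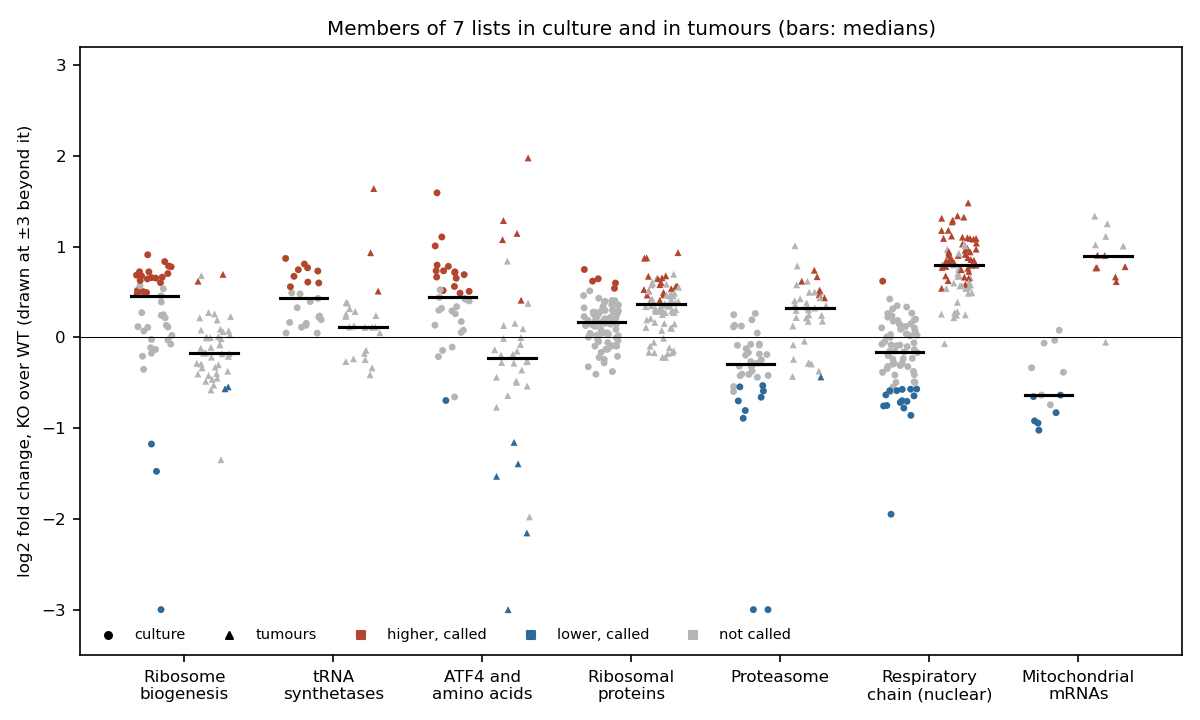
Log2 fold change of KO over WT (vertical) for the tested members of 7 lists, in culture (circles) and in tumours (triangles), coloured by their edgeR call, with a bar at each median and points beyond 3 drawn at 3. Synthetases all lie above 0 in culture, and the nuclear respiratory chain and the mitochondrial mRNAs have medians of -0.16 and -0.64 in culture and of 0.80 and 0.90 in tumours.

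Genes of glycolysis and of the response to low oxygen were lower in part. Of 35 genes of glycolysis and pyruvate use, 11 were lower and 4 higher. Besides the lactate exporter Slc16a3, Aldoc, an aldolase, was at 89.8 and 110.05 CPM in WT and 35.5 and 35.2 CPM in KO and fell by 1.5 (SE 0.17, edgeR adjusted p = 3.76e-05). Pfkfb4, which makes and removes the activator of phosphofructokinase, went from 7.795 and 6.92 to 1.38 and 1.197 CPM, and the neuronal enolase Eno2 from 1.89 and 2.53 to 0.23 and 0.456 CPM. Ldha, which makes lactate, was at 2111 and 2655 CPM in WT and 1199.7 and 1493 CPM in KO (edgeR adjusted p = 0.012) and did not pass without WT culture 2 (adjusted p = 0.0546) or KO culture 1 (adjusted p = 0.181). The 4 higher genes became 2 without WT culture 1 or WT culture 2. Of 25 hypoxia-induced genes 9 were lower and 3 higher. Lower were Hif1a, the oxygen-regulated transcription factor, at 389 and 359 CPM in WT and 218 and 209.7 CPM in KO, and P4ha2, a collagen prolyl hydroxylase, at 83.96 and 84.1 CPM in WT and 39.3 and 40.1 CPM in KO. Both groups were apart for these 2 genes, with log2 fold changes of -0.81 (SE 0.16, edgeR adjusted p = 0.00252) and -1.08 (SE 0.16, edgeR adjusted p = 0.000286). The 9 became 5 without WT culture 2, the 3 higher became 1 without WT culture 1 or KO culture 1 and 0 without WT culture 2 or KO culture 2, and when culture and tumour libraries were fitted jointly 3 were lower and none higher in edgeR.

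In the tricarboxylic acid cycle the 2 largest differences had opposite directions. Ogdhl, a tissue-restricted form of oxoglutarate dehydrogenase, was at 23.9 and 21.5 CPM in WT and 0.645 and 1.03 CPM in KO, a log2 fold change of -4.78 (SE 0.28, edgeR adjusted p = 2.65e-07). Pcx, or pyruvate carboxylase, which refills the cycle with oxaloacetate, was at 18.6 and 16.7 CPM in WT and 52.1 and 48.6 CPM in KO, a rise of 1.51 (SE 0.17, edgeR adjusted p = 4.55e-05). Both were called whichever library was left out. In lipid metabolism, 11 of 29 genes of fatty acid synthesis were lower and 5 higher. Acly, which makes cytosolic acetyl-CoA, was at 198 and 166 CPM in WT and 81.5 and 73.3 CPM in KO, the desaturase Scd2 at 641 and 512 CPM in WT and 285 and 235 CPM in KO, and the desaturase Fads2 at 48.1 and 37.1 CPM in WT and 11.3 and 10.04 CPM in KO. Each KO library lay below both WT libraries for these 3 genes. Fabp5, a carrier of fatty acids, was nearly lost, at 23.6 and 29.8 CPM in WT and 0.276 and 0.798 CPM in KO (fell by 5.68, SE 0.35, edgeR adjusted p = 3.64e-07). The 5 higher genes of this list were between 1 and 2 when any library was left out. The list of fatty acid oxidation and storage had 6 of 42 members higher, 3 without WT culture 2, and 7 lower, near the background. In it Plin2, which coats lipid droplets, was the most abundant gain, from 906 and 917 to 1711 and 1833 CPM (log2 fold change 0.96, SE 0.18, edgeR adjusted p = 0.00208).

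Secretory genes of the stomach lining were higher, with exceptions. Of 19 gastric pit and mucus genes tested, 12 were higher and 4 lower, with a median of 1.85, and these counts changed by less than 1.5 times when any library was left out. Besides Tff1, Tff2 was at 42.5 and 63.7 CPM in WT and 173 and 209 CPM in KO (log2 fold change 1.85, SE 0.20, edgeR adjusted p = 3.16e-05). Mucl3, a mucin-like surface protein, was at 21.4 and 18.6 CPM in WT and 167 and 126 CPM in KO (log2 fold change 2.87, SE 0.19, edgeR adjusted p = 5.71e-07), and Clca1, a secreted regulator of mucus, at 9.26 and 9.34 CPM in WT and 34.4 and 39.3 CPM in KO. The groups were apart for all 3. Ctse, a gastric aspartic protease, went the other way, at 329 and 287 CPM in WT and 163 and 147 CPM in KO (fell by 0.99, SE 0.16, edgeR adjusted p = 0.000723), no longer called when culture and tumour libraries were fitted jointly (adjusted p = 0.0507). Tff3, the intestinal trefoil peptide, named after its value was seen, was at 11.8 and 21.4 CPM in WT and 2.07 and 2.97 CPM in KO and fell by 2.73 (SE 0.32, edgeR adjusted p = 4.84e-05). Among enzymes that build mucin-type sugar chains, 4 of 28 were higher and 6 lower. The sialyltransferases differed in direction: St3gal6 rose from 48.7 and 60.7 to 184 and 202 CPM (log2 fold change 1.82, SE 0.17), while St6gal1 went from 152 and 152 to 84.3 and 78.7 CPM and fell by 0.90 (SE 0.15). The 4 higher became 1 without WT culture 1, 2 without WT culture 2 and 1 without KO culture 2.

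The transcription factors that set endodermal identity split. Of 23 tested, 5 were higher and 5 lower. Sox17, a factor of definitive endoderm and bile duct, was at 31.5 and 28.02 CPM in WT and 186 and 158 CPM in KO and rose by 2.53 (SE 0.17, edgeR adjusted p = 6.31e-07). Klf4, a factor of differentiated surface epithelium, was at 80.5 and 67.6 CPM in WT and 202 and 165 CPM in KO, and Foxq1, which is expressed in gastric surface cells, at 91.3 and 73.9 CPM in WT and 183 and 139.6 CPM in KO. They rose by 1.31 (SE 0.17) and 0.97 (SE 0.18). Sox9, the factor of duct progenitors, went from 21.8 and 20.8 to 4.42 and 3.36 CPM and fell by 2.44 (SE 0.22, edgeR adjusted p = 7.1e-06). These 4 were called whichever library was left out, while the 5 higher became 3 without WT culture 2 or KO culture 1 and the 5 lower became 3 without WT culture 1. Hnf4a, a factor of the classical pancreatic cancer type, was at 156 and 129.8 CPM in WT and 186 and 161 CPM in KO, short of the threshold (edgeR adjusted p = 0.254).

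Junction genes diverged within the same structure. Of 32 genes of tight junctions and desmosomes, 10 were lower and 5 higher. Cldn18, the claudin of stomach epithelium, was at 178 and 173 CPM in WT and 306 and 314 CPM in KO and rose by 0.82 (SE 0.16, edgeR adjusted p = 0.00189). Cldn7, Cldn3 and Cldn23, claudins of other epithelia, went to nearly no counts. Cldn7 had 470 counts in WT and none in KO, at least 168-fold lower on a floor of 3 counts over the group. Epcam, an adhesion molecule that binds claudin-7, had 109 counts in WT and 1 in KO, so that KO over WT was 0.00857 (95% limits by counting error 0.000215 to 0.0488), and Cldn3 had 88 counts and 1, KO over WT being 0.0106 (0.000266 to 0.0607). Epcam was rare in WT as well, at 3.03 and 2.91 CPM, and Cldn3 had fewer WT counts still. Cldn23 was at 11.96 and 13.7 CPM in WT and 0.23 and 0.399 CPM in KO. The 5 higher junction genes became 2 without WT culture 2 and 3 without KO culture 1. Among cadherins and related adhesion molecules, 8 of 23 were lower and 1 higher. Cdh3, or P-cadherin, went from 17.3 and 11.1 to 1.57 and 0.969 CPM (fell by 3.46, SE 0.32, edgeR adjusted p = 8.31e-06), and Ncam1 from 44.01 and 35.99 to 15.6 and 9.58 CPM. The 1 higher member was E-cadherin, Cdh1, at 636 and 557 CPM in WT and 932 and 898 CPM in KO (log2 fold change 0.62, SE 0.18, edgeR adjusted p = 0.0215), no longer called without WT culture 2 (adjusted p = 0.162), KO culture 1 (adjusted p = 0.157) or KO culture 2 (adjusted p = 0.11). The 8 lower became 5 without WT culture 1.

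The cytoskeleton showed large losses in genes of invasive or neural cells. Nes, the intermediate filament nestin of progenitor cells, was at 162 and 122 CPM in WT and 16.4 and 13.2 CPM in KO and fell by 3.25 (SE 0.20, edgeR adjusted p = 3.79e-07). Cnn3, a calponin of actin filaments, went from 136 and 138 to 2.21 and 2.68 CPM (fell by 5.81, SE 0.21, edgeR adjusted p = 1.61e-08), and Fscn1, the actin-bundling protein fascin, from 33.8 and 26.2 to 2.12 and 2.39 CPM (fell by 3.73, SE 0.24). The cardiac troponin Tnnt2 went from 169 and 199 to 45.6 and 38.9 CPM. Of 35 actomyosin genes, 7 were lower and none higher in edgeR (20% called), which is below the share of all genes, and the 7 became 4 without KO culture 1. The abundant keratins of simple epithelium were closer: Krt8 was at 3172 and 3466 CPM in WT and 2822 and 2774 CPM in KO (edgeR adjusted p = 0.409), Krt18 at 2365 and 2457 CPM in WT and 3073 and 2857 CPM in KO (adjusted p = 0.303). Of 13 members of the list of keratins and 2 other filament genes, 5 were lower, but 11 of the 13 lie on chromosomes 11 and 15, and of the 2 elsewhere 1, Nes, was lower. Without KO culture 1 the 5 became 3.

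At focal adhesions, the sites where integrins join actin, 8 of 40 genes were higher and 6 lower. Fermt2, or kindlin-2, which activates integrins, had 200 counts in WT and 2 in KO, KO over WT being 0.00935 (95% limits by counting error 0.00112 to 0.0342). Tns4, a tensin that binds integrin tails, went from 59.1 and 50.5 to 13.1 and 7.58 CPM (fell by 2.40, SE 0.24, edgeR adjusted p = 1.36e-05). Genes of caveolae differed in direction: Cavin1 went from 384 and 347 to 191 and 154 CPM (fell by 1.08, SE 0.17, edgeR adjusted p = 0.00053) and Cavin2 from 91.6 and 105 to 189 and 213 CPM (rose by 1.03, SE 0.16, edgeR adjusted p = 0.00048). Pdlim5, a scaffold of actin, rose from 143 and 125 to 282 and 262 CPM. The 8 higher genes became 5 without WT culture 2 and 4 without KO culture 1. Without chromosomes 6, 11, 15 and 16 the list had 6 of 27 higher and 2 lower.

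Of 18 matricellular proteins and proteoglycans tested, which tune how cells respond to matrix, 10 were lower and 2 higher. Spp1 led in level, and Spock3, a testican proteoglycan, had 101 counts in WT and none in KO, at least 36-fold lower. The lower count stayed within 1.5 times of 10 when any library was left out, and the 2 higher became 1 without KO culture 1. Igfbp7, a secreted protein that binds insulin-like growth factors, was at 213 and 237 CPM in WT and 58.3 and 48.4 CPM in KO (fell by 2.08, SE 0.17, edgeR adjusted p = 2.71e-06). Among 23 matrix proteases and inhibitors, 8 were lower and 1 higher. Mmp13, a collagenase, went from 27.8 and 31.2 to 5.204 and 6.33 CPM, and Timp3, an inhibitor of metalloproteinases, from 11.7 and 10.8 to 2.35 and 2.57 CPM. Mmp15, a membrane-bound metalloproteinase, was the 1 gain, from 27.6 and 22.97 to 101 and 75.2 CPM (log2 fold change 1.80, SE 0.19, edgeR adjusted p = 2.44e-05), and Adamts9 had 167 counts in WT and 1 in KO, KO over WT being 0.0056 (95% limits by counting error 0.000141 to 0.0316). Without KO culture 2 there were 2 gains in this list.

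In the Wnt pathway, which maintains stem cells of the gut, 12 of 24 genes were lower and 1 higher. The ligand Wnt7b was at 46.99 and 44.6 CPM in WT and 1.61 and 0.912 CPM in KO and fell by 5.14 (SE 0.26, edgeR adjusted p = 1.12e-07). The receptor Fzd2 went from 7.69 and 7.64 to 0.737 and 0.969 CPM, Lgr6, which binds the amplifying ligands R-spondins, from 27.6 and 25.7 to 3.91 and 3.76 CPM, and the nuclear effector Tcf7 from 12.7 and 9.34 to 0.553 and 0.228 CPM. For these genes both KO libraries lay below both WT libraries. They were named for a small p or a high level, and the groups did not overlap for 61.4% of all genes tested. The lower count stayed within 1.5 times when any library was left out, and the 1 higher became 2 without WT culture 1 or KO culture 2 and 0 without WT culture 2 or KO culture 1. Smo, the signal transducer of the Hedgehog pathway, went from 23.3 and 22.5 to 3.04 and 3.65 CPM (fell by 2.78, SE 0.22, edgeR adjusted p = 2.19e-06). Among 14 fibroblast growth factor genes, 6 were lower and 1 higher. The receptor Fgfr4 went from 9.203 and 6.703 to 0.783 and 0.513 CPM (fell by 3.58, SE 0.35, edgeR adjusted p = 1.14e-05) and Fgfrl1, a receptor without a kinase, from 6.06 and 4.34 to 0.645 and 1.14 CPM. Fgf13, which acts inside the cell on sodium channels, was the higher member, from 12.8 and 12.2 to 30.4 and 29.1 CPM.

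Growth factor and ERK genes had more gains than losses in the fit of all 4 culture libraries. For the growth factor list this was not so without WT culture 2 or KO culture 1. Of 35 genes of the EGF receptor family and other receptor tyrosine kinases, 8 were higher and 5 lower. Efnb2, a membrane-bound ephrin, rose from 119.6 and 101 to 289.6 and 247 CPM (log2 fold change 1.28, SE 0.17, edgeR adjusted p = 0.000127) and Kitl, the ligand of KIT, from 39.1 and 34.7 to 67.1 and 81.4 CPM. The 8 became 4 without WT culture 2 or KO culture 1. Of 28 genes that ERK induces, mostly as feedback, 8 were higher and 4 lower, among them Phlda1, at 252 and 239.8 CPM in WT and 495 and 436 CPM in KO (log2 fold change 0.92, SE 0.16, edgeR adjusted p = 0.00125). The 8 became 4 without WT culture 2 and 5 without KO culture 1, and the 4 lower became 2 without either WT library or without KO culture 2. Of 21 AP-1 and immediate early genes, 6 were higher and 1 lower. Fos was at 8.77 and 8.08 CPM in WT and 33.4 and 29.4 CPM in KO, Egr1 at 15.8 and 11.7 CPM in WT and 53.1 and 38.9 CPM in KO and Jund at 134 and 126 CPM in WT and 344 and 217 CPM in KO, log2 fold changes of 1.90 (SE 0.19), 1.75 (SE 0.22) and 1.11 (SE 0.20), while Jun went from 43.9 and 39.4 to 23.2 and 17.3 CPM (fell by 1.04, SE 0.19, edgeR adjusted p = 0.00153), no longer called when culture and tumour libraries were fitted jointly (adjusted p = 0.0876). Without KO culture 1, 4 genes of this list were lower.

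Genes tied to YAP and TEAD, the transcription factors that respond to tension and crowding, split into 9 higher and 11 lower of 32. The 2 angiomotin-like regulators differed in direction: Amotl1 went from 31.8 and 22.7 to 2.39 and 1.31 CPM (fell by 3.85, SE 0.29, edgeR adjusted p = 1.7e-06) and Amotl2 from 53.4 and 46.04 to 118 and 89.2 CPM (rose by 1.06, SE 0.18, edgeR adjusted p = 0.000872). The 9 higher became 2 without WT culture 2 or KO culture 1, and the 11 lower became 6 without WT culture 1 or KO culture 2. In the TGF-beta list 7 of 26 were lower and 2 higher. The receptor Tgfbr2 rose from 53.4 and 49.4 to 136 and 122 CPM (log2 fold change 1.33, SE 0.16, edgeR adjusted p = 5.99e-05), while Pmepa1, which the pathway induces, was lower, at 179 and 147 CPM in WT and 100.2 and 76.4 CPM in KO, and the activin subunit Inhba at 18.8 and 13.7 CPM in WT and 6.401 and 6.04 CPM in KO. In the BMP list 4 of 19 were lower and none higher in edgeR. Id2, which blocks differentiation factors, went from 195 and 204 to 63.04 and 55.8 CPM (fell by 1.75, SE 0.16, edgeR adjusted p = 6.8e-06), but its relative Id1, a direct BMP target, was at 86.5 and 95.6 CPM in WT and 96.8 and 93.97 CPM in KO, short of the threshold (edgeR adjusted p = 0.787).

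Secreted immune signals differed in both directions. Of 30 chemokines, cytokines and growth factors, 9 were higher and 8 lower, and both counts stayed within 1.5 times when any culture library was left out but were 4 and 4 when culture and tumour libraries were fitted jointly. Higher were Il33 and the chemokines Ccl20, which draws cells with CCR6, at 36.8 and 47.4 CPM in WT and 152 and 150.5 CPM in KO, and Cxcl3, which draws neutrophils, at 64.04 and 74.8 CPM in WT and 185 and 205 CPM in KO. They rose by 1.85 (SE 0.17, edgeR adjusted p = 8.34e-06) and 1.49 (SE 0.16, edgeR adjusted p = 2.94e-05), and the call of Cxcl3 was lost when culture and tumour libraries were fitted jointly (adjusted p = 0.087). Lower was Csf2, or GM-CSF, at 48.6 and 68.2 CPM in WT and 11.1 and 17.05 CPM in KO (fell by 2.06, SE 0.24, edgeR adjusted p = 4.36e-05). Of the 8 lower genes, 6 lie on chromosome 11, while all 9 higher genes lie elsewhere than on the 4 chromosomes named above. Of 35 genes of the NF-kB pathway, 9 were lower and 2 higher, among them Tnfaip2, at 534 and 476 CPM in WT and 216 and 205 CPM in KO, the feedback inhibitor Tnip3, at 176 and 219 CPM in WT and 62.3 and 74.1 CPM in KO, and Il1rn, the antagonist of interleukin-1, at 261 and 239 CPM in WT and 128 and 101 CPM in KO. Tnf went from 5.85 and 7.64 to 0.691 and 0.741 CPM. These 4 log2 fold changes were -1.26, -1.53, -1.13 and -3.23 (SE 0.17, 0.17, 0.17 and 0.34), and each was called whichever library was left out. The 2 higher NF-kB genes became 1 without WT culture 2 or KO culture 1.

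Of 19 genes for checkpoint ligands and suppressive enzymes, 7 were lower and 2 higher. Cd276, or B7-H3, which restrains T cells, was at 25.9 and 21.5 CPM in WT and 4.47 and 3.76 CPM in KO (fell by 2.52, SE 0.22, edgeR adjusted p = 4.84e-06). Vtcn1, or B7-H4, had 178 counts in WT and 1 in KO, KO over WT being 0.00525 (95% limits by counting error 0.000132 to 0.0296). Nt5e, described above, was one of the 2 gains, which became 1 without WT culture 2 or KO culture 1.

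In the list of cell death regulators, which does not hold all such genes, 12 of 35 were lower and none higher in edgeR. The executioner caspase Casp6 went from 43.4 and 57.5 to 15.5 and 17.4 CPM (fell by 1.62, SE 0.19, edgeR adjusted p = 6e-05), Bok, a pro-death relative of BCL2, from 111 and 148 to 58.1 and 62.6 CPM, and Birc5, or survivin, which blocks death and serves in mitosis, from 46.2 and 52.5 to 17.5 and 20.6 CPM. The losses named here thus included genes that promote death and a gene that blocks it. Among 32 genes of p53 and its targets, 6 were higher and 3 lower. Bbc3, or PUMA, starts mitochondrial death but was not a member of the cell death list. It rose from 11.3 and 14.6 to 31.1 and 26.1 CPM (log2 fold change 1.15, SE 0.20, edgeR adjusted p = 0.00111). Of 27 cell cycle inhibitors and genes of the RB pathway, 3 were higher and 6 lower, with a median of -0.28. Cdkn2c, an inhibitor of the cyclin D kinases, was at 16.7 and 15.3 CPM in WT and 8.06 and 6.73 CPM in KO (fell by 1.11, SE 0.21, edgeR adjusted p = 0.00187). Among the gains, Ccnd2, a D-type cyclin, rose from 247 and 191 to 439.98 and 413 CPM (log2 fold change 0.96, SE 0.18, edgeR adjusted p = 0.00152), and Rb1, which cyclin D kinases switch off, from 22.5 and 17.1 to 46.2 and 38.3 CPM, while Ccnd1 was at 492 and 418 CPM in WT and 487 and 432 CPM in KO (edgeR adjusted p = 0.967). Of 17 circadian clock genes, 7 were higher and none lower in edgeR, with a median of 0.47. The repressor Bhlhe41 was at 61.1 and 48.6 CPM in WT and 116 and 92.8 CPM in KO and rose by 0.93 (SE 0.18, edgeR adjusted p = 0.00215), and the output factor Dbp was at 6.23 and 5.99 CPM in WT and 16.4 and 11.1 CPM in KO, no longer called when culture and tumour libraries were fitted jointly (adjusted p = 0.146). The hour of harvest is not given in the labels. The 7 became 4 without WT culture 2 and 3 without KO culture 1, where 1 gene was lower.

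Several losses concerned genes more usual in neurons, muscle or gland cells. Of 25 genes of creatine, purine and nucleotidase metabolism, 14 were lower and 2 higher, 1 without WT culture 2, with a median of -0.89. Ckb, the brain-type creatine kinase that buffers ATP, and Gatm, which makes the precursor of creatine, were both nearly lost: Ckb was at 61.98 and 71.97 CPM in WT and 0.507 and 0.855 CPM in KO, and Gatm had 228 counts in WT and 1 in KO, KO over WT being 0.0041 (95% limits by counting error 0.000103 to 0.0231). Of 26 genes of cyclic AMP and G protein signalling, 13 were lower and 2 higher, among them Pde3b, which degrades cyclic AMP, at 6.98 and 6.26 CPM in WT and 0.829 and 1.37 CPM in KO. Gng2, a G protein gamma subunit, had 184 counts in WT and none in KO, at least 65.6-fold lower. Of 16 genes of vesicle release and neurons, 7 were lower and 2 higher. Syt7, a calcium sensor of exocytosis, had 264 counts in WT and none in KO, at least 94.2-fold lower, and Cadps, which primes vesicles, was at 60.3 and 66.4 CPM in WT and 0.368 and 0.741 CPM in KO. Rab27b, a small GTPase for the release of secretory granules and exosomes, was higher, at 159 and 172 CPM in WT and 316 and 326 CPM in KO (log2 fold change 0.95, SE 0.16, edgeR adjusted p = 0.000725). In these 3 lists the counts of lower genes changed by less than 1.5 times when any library was left out.

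Other losses were of calcium-binding, retinoid and complement genes. Of 28 S100 proteins, annexins and galectins, 11 were lower and none higher in edgeR. S100a4, linked to cell motility, was at 54.9 and 80 CPM in WT and 8.704 and 10.9 CPM in KO (fell by 2.79, SE 0.22, edgeR adjusted p = 2.4e-06), and Anxa6, a membrane scaffold, went from 128 and 110.4 to 17.04 and 14.3 CPM (fell by 2.92, SE 0.18, edgeR adjusted p = 3.79e-07). The abundant Anxa2 was at 1999 and 2319.8 CPM in WT and 2115 and 2127 CPM in KO, short of the threshold (edgeR adjusted p = 0.94). Of 32 retinoid and aldehyde dehydrogenase genes, 9 were lower and 2 higher, 1 without KO culture 1. Besides Aldh1a3, genes of earlier steps were lower: Stra6, which imports retinol, went from 44.7 and 39.2 to 5.02 and 3.99 CPM (fell by 3.21, SE 0.21, edgeR adjusted p = 5.12e-07), and Rdh11, which acts on retinal, from 78.2 and 82.9 to 21.6 and 24.3 CPM. Of 24 complement and coagulation genes, 11 were lower and 1 higher, and the 11 became 7 without KO culture 2. Procr, the receptor of protein C, was the 1 gain, from 52.1 and 59.6 to 98.6 and 111 CPM. Among 32 genes listed under ion and solute transport, 10 were lower and 6 higher. They included Car8, a relative of the carbonic anhydrases and no transporter, at 95.9 and 125 CPM in WT and 4.84 and 7.299 CPM in KO. The drug exporter Abcg2 was at 10.7 and 11.3 CPM in WT and 0.783 and 0.912 CPM in KO. In iron handling the plasma iron carrier Trf went from 9.42 and 8.74 to 0.322 and 0.684 CPM and the copper oxidase Cp from 153 and 148 to 59.8 and 65.3 CPM, within 7 lower and 5 higher of 27. The 7 became 3 without WT culture 2 and 4 without KO culture 1, and the 5 became 1 without either.

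Lists near the background were those of autophagy (1 higher and 6 lower of 38), NRF2 targets (6 and 5 of 48), heat shock chaperones (5 and 4 of 33), the unfolded protein response (4 and 6 of 38), DNA repair (2 and 9 of 47), chromatin regulators (6 and 7 of 45), JAK-STAT (2 and 7 of 34) and insulin signalling (4 and 5 of 30). Single members still moved far. Nqo1, a quinone reductase, went from 41.7 and 56.5 to 11.3 and 12.4 CPM (fell by 2.05, SE 0.20, edgeR adjusted p = 1.18e-05), and Smarca2, a chromatin remodelling ATPase, from 13.1 and 14.9 to 1.29 and 1.82 CPM (fell by 3.18, SE 0.27, edgeR adjusted p = 3.89e-06). The methyltransferase Dnmt3b had 79 counts in WT and 2 in KO, KO over WT being 0.0237 (95% limits by counting error 0.00282 to 0.0883). Lifr, the receptor for leukemia inhibitory factor, went from 19.3 and 21.5 to 3.91 and 2.91 CPM, and Il13ra1, a receptor chain for interleukin-13, from 19.7 and 22.4 to 2.95 and 3.25 CPM. Of the kinase Akt1, which acts downstream of integrins and insulin, the level went from 202 and 189 to 109.8 and 104 CPM (fell by 0.87, SE 0.15, edgeR adjusted p = 0.00116). Most of these counts changed by more than 1.5 times without single libraries. Without WT culture 2 the higher and lower counts were 3 and 3 for NRF2 targets and 0 and 3 for the unfolded protein response, the higher count was 1 for heat shock, 0 for DNA repair, 3 for chromatin, 0 for JAK-STAT and 2 for insulin signalling, and the lower count was 1 for autophagy. Without KO culture 1 the lower count was 1 for autophagy and 2 for the unfolded protein response, and the higher count 1 for the unfolded protein response, heat shock, DNA repair and JAK-STAT and 2 for chromatin and insulin signalling. Without WT culture 1 the higher count was 2 for the unfolded protein response, 3 for heat shock, 0 for DNA repair and 1 for JAK-STAT. Without KO culture 2 it was 2 for autophagy and the unfolded protein response, 1 for heat shock and JAK-STAT and 0 for DNA repair.

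Some of the list counts above moved by more than 1.5 times when culture and tumour libraries were fitted jointly. The lower count became 3 for endodermal factors, 2 for gastric genes, 5 for integrins and matrix receptors, 1 for ERK genes, 6 for the nuclear respiratory chain, 3 for the unfolded protein response, 4 for iron handling, 1 for ribosome biogenesis, and 0 for AP-1 genes and the amino acid response. The higher count became 3 for matrix proteases, 2 for the Wnt pathway, 5 for JAK-STAT, 2 for iron handling, 2 for autophagy, 8 for ribosomal proteins, 1 for vesicle release and 1 for the S100 list. Leaving out chromosomes 6, 11, 15 and 16, which also leaves fewer members, moved other counts as far. The lower members were then 4 of 17 matrix proteases (median -0.12, against -0.28 for all 23), 4 of 22 JAK-STAT genes (median 0.28, against -0.11), 2 of 12 gastric genes, 7 of 14 Wnt genes, 7 of 22 fatty acid synthesis genes, 6 of 25 glycolysis genes, 4 of 24 actomyosin genes, 7 of 22 genes of the S100 list, 2 of 22 chemokines and cytokines, 3 of 26 autophagy genes, 3 of 22 genes of the unfolded protein response, 1 of 25 p53 genes and 0 of 19 one-carbon genes. The higher members were 5 of 20 ERK genes, 1 of 20 hypoxia genes, 1 of 15 matricellular genes, 1 of 25 retinoid genes, 1 of 20 cyclic AMP genes and 1 of 36 DNA repair genes.

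Set beside the tumours, the culture differences held for some groups and not for others. The tumour comparison called 19.7% of 16257 genes, 8.78% higher and 10.9% lower, and the groups did not overlap for 53.3%. Of the 1226 higher culture genes also tested in tumours, 428 were higher there too, which is 34.9% of them and 30.0% of the tumour gains, and 26 were lower. Of 2125 lower culture genes, 748 were lower in tumours as well, 35.2% of them and 42.1% of the tumour losses, and 93 were higher. The direction was the same for 81.9% of the gains and 76.2% of the losses. The tumour calls rested on single libraries, with 417 higher and 754 lower without WT tumour 2, 461 and 797 without WT tumour 1, 854 and 1116 without KO tumour 1, and 2154 and 1989 without the other KO tumour, in place of 1428 and 1778. Of the called members tested in both settings, the same call was made in tumours for 12 of 13 in the Wnt list, 11 of 12 in the matricellular list and 11 of 16 in the gastric list. In the matricellular list 1 called member and in the gastric list 3 had the opposite call, among the latter Ctse, at a log2 fold change of 1.64 in tumours (edgeR adjusted p = 0.023). None of the 23 called ribosome biogenesis and Myc network genes and none of the 7 called clock genes had the same call in tumours. All 6 mitochondrial mRNAs that were lower in culture were higher in tumours, mt-Nd1 at a log2 fold change of 0.77 (edgeR adjusted p = 0.017), and of the 77 nuclear respiratory chain genes 48 were higher in tumours. Il33 was at a log2 fold change of -0.49 in tumours (edgeR adjusted p = 0.552) and Ank at -0.02 (edgeR adjusted p = 0.972), neither of which passed. Tumour libraries also hold RNA of host cells, whose part in these values was not tested, and whether the culture and tumour differences themselves differ was not tested.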

How the data were processed

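Polyadenylated RNA of 4 culture libraries (2 WT, 2 KO) and 5 tumour libraries (3 WT, 2 KO) was sequenced with molecular identifiers, and the authors removed duplicate reads by them and added ERCC spike-ins, per the labels' protocols. The deposited values used are raw counts per gene made by the authors. The submitters' processing notes name STAR 2.5.2b, fastp 0.23.1, DESeq2, Subread 1.5.2 and featureCounts with GRCm38. For the annotation release, strand setting and treatment of multi-mapping reads, nothing is stated in the sources used here. Gene symbols were matched in GENCODE M21 for 49412 of 49671 genes.

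Counts of culture and tumours were fitted separately with edgeR 4.0.16 (R 4.3.3, limma 3.58.1): filterByExpr (minimum count 10, minimum total 15), TMM scaling, prior count 0.125, the quasi-likelihood test, and Benjamini-Hochberg adjustment over all genes tested, with a threshold of 0.05. Simulated data for the culture comparison had 13301 genes tested, of which 97 were changed by 1 and 97 by 2 on the log2 scale. Of these changes 73.2% and 94.8% were recovered, with 7 false calls. Each simulated library was drawn independently and few genes were changed, while in the data 25.5% of genes passed. Deviations shared between the lines were not simulated, so the 7 give no rate of false calls for these data. Culture depth was 17738774 to 21247023 counts, and intervals cover counting error only. Alternatives were other scalings and filters, DESeq2 1.42.0, limma-voom, the replicate number as a block, 1 fit of 9 libraries, a fold of at least 1.5, each library left out, and, chosen after the data were seen, counts without chromosomes 6, 11, 15 and 16.

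The members and gene lists were chosen with earlier results of these data known. Genes named were the integrin chains, the 12 largest gains and losses among called genes with at least 100 CPM and no overlap of the groups, the 10 smallest p in each direction among called genes with at least 300 CPM, no overlap and a log2 fold change of 0.58 to 2, and, per list, up to 5 genes with the smallest p and 3 with the highest level. Marker genes and genes said to be named after their values were seen lie outside this rule. Normalized tables were not used here. Some genes that met this rule are not reported here.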

Additional observations from a re-analysis of the deposited data

How the results depend on the processing

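In culture 1258 genes were higher and 2203 lower. With a fold of at least 1.5 as the tested null, 1511 passed, 248 higher and 1263 lower. With the replicate number as a block 7587 passed, 3689 higher and 3898 lower. The numbers do not pair the samples by any label, and the difference between replicates 1 and 2 correlated between WT and KO over genes at 0.403, over 2 pairs. Leaving out 1 library gave 2130 to 2985 genes, 570 to 986 higher and 1560 to 1999 lower. The other scalings, filters and tools gave counts within 1.5 times, as did leaving chromosomes 6, 11, 15 and 16 out of the count. In tumours 3206 genes passed, and leaving out 1 library gave 1171 to 4143, 417 to 2154 higher and 754 to 1989 lower. Of 166 called genes named above, 11 lost the call without 1 library and 10 in 1 fit of all 9 libraries, and none changed direction under the alternatives run. Most of the 166 were named for a large difference or a small p, so these counts describe them and not all genes called. Of 10 named genes not called, 7 were called with the block. With 2 libraries a group, moderate changes of rare genes are limited by the spread between libraries and by depth.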
